A study of Mus musculus with 18 samples.

Results

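The genes described here encode subunits of the mitochondrial respiratory chain and of ATP synthase, measured in mouse bone marrow macrophages exposed to silica or iron oxide nanoparticles and to lipopolysaccharide (LPS). They were chosen by symbol in the deposited probe annotation. The symbols were those starting with Nduf, Uqcr, Cox4i, Cox5, Cox6, Cox7, Cox8 or Atp5, together with Sdha, Sdhb, Sdhc, Sdhd, Cyc1 and Cycs. Of 12393 genes tested, 86 met this rule, and no measured value entered it. The 86 genes had 160 probe sets with 1 symbol, and 46 genes had more than 1 of these. For each gene the probe set with the highest mean over all arrays was used. A further 8 probe sets carried several symbols, among them those of Ndufb4, Ndufs6 and Ndufa11, and were left out. By function the 86 genes were 33 complex I subunits, 5 complex I assembly factors that share the Nduf name, 4 complex II subunits, 9 complex III subunits, cytochrome c, 11 complex IV genes, 6 tissue isoforms of complex IV and 17 ATP synthase genes.

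The respiratory chain sits in the inner mitochondrial membrane. Complex I oxidises NADH and complex II oxidises succinate, and both pass electrons through coenzyme Q to complex III. Cytochrome c carries them on to complex IV, which reduces oxygen, and the proton gradient built on the way drives ATP synthase. All the genes described here lie in the nucleus, while other core subunits of complexes I, III and IV and of ATP synthase are encoded by mitochondrial DNA. Macrophages that meet LPS are known for shifting from oxidative metabolism towards glycolysis, with complex II and succinate among the steps studied most.

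RNA was measured on 18 Affymetrix arrays, in 6 groups of 3. All cells came from the marrow of C57BL/6 mice 4 to 6 weeks old and were grown with medium conditioned by L929 fibroblasts, a source of macrophage growth factor. The CON group received medium alone, and the Silica and SPIO groups received amorphous silica of 50 nm or iron oxide of 33 nm for 24 h, followed by a wash and fresh medium. The LPS, Silica-LPS and SPIO-LPS groups had the same first step, with plain medium in the LPS group, and then 10 ng/ml LPS from Escherichia coli O111:B4 for 4 h. No times are recorded for CON, so whether it had the same steps and total time is not known. The labels give the particle concentration as 25 mg/ml, a unit that could not be checked. They name the 3 arrays of a group biological replicates without saying whether these came from separate mice, and p-values therefore reflect only how much these cultures vary.

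The deposited values are log2 signals, without detection calls or counts, and with 3 arrays a group the number of arrays limits the precision. Arrays of the same group correlated at 0.9974 to 0.9987 over the 12393 genes tested. The 10 macrophage markers had mean signals between 9.33 and 14.45 in CON, while all measured markers of B cells, of T and NK cells and of erythroid, mast and dendritic cells lay below 6. Mean signals of the 8 neutrophil markers ran from 5.55 to 13.12 in CON and those of the 10 fibroblast markers from 2.9 to 13.55. The mean CON signal of the 86 genes had a median of 10.9, against 6.97 over all genes, and 72 of them stood at 9 or more. The 5 genes below 6 were tissue isoforms of complex IV and had mean CON signals down to 4.33 for Cox8b. Signals of different probe sets are not comparable as transcript levels. For 19 of the 86 genes the probe set is of a type whose probes can also match related transcripts.

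RefSeq promoter windows (GRCm38.p6) were matched by gene identifier for 71 of the 86 genes, and 4 of these are shown because their genes were among those that moved furthest after LPS, Cycs and Ndufb1 upward and Ndufa6 and Sdhb downward. Each sequence is the 250 bases before the annotated start, written 5′ to 3′ on the strand of the gene. Capitals mark the letters GCATGCGC, part of the site bound by the respiratory regulator NRF1, or the cAMP response element TGACGTCA. Coordinates are chr6:50566570-50566819 on the minus strand for Cycs, chr12:101975739-101975988 on the minus strand for Ndufb1, chr15:82354292-82354541 on the minus strand for Ndufa6 and chr4:140961021-140961270 on the plus strand for Sdhb.
Cycs: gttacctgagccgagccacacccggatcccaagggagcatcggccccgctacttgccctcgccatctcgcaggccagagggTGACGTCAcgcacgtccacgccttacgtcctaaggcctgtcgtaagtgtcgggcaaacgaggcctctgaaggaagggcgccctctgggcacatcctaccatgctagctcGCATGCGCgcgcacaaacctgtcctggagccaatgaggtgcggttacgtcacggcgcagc
Ndufb1: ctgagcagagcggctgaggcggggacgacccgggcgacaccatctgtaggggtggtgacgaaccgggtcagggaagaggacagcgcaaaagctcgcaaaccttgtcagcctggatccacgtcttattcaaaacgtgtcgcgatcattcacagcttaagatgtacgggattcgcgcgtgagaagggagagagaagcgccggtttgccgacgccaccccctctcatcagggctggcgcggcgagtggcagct
Ndufa6: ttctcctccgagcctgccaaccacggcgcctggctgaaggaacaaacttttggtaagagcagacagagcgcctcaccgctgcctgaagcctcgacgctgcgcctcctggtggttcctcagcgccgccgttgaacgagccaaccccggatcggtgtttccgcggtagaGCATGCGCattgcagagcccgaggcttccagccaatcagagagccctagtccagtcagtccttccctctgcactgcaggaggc
Sdhb: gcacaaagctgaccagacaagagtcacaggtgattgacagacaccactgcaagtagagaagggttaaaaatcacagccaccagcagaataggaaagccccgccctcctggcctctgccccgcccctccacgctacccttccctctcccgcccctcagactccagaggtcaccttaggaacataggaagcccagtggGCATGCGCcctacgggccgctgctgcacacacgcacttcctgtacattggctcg

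Cycs, which rose after LPS, and Ndufa6 and Sdhb, which fell, all held GCATGCGC shortly before the start, with its first base at positions -60, -83 and -54. Ndufb1 held neither motif, and Cox7a2l, which fell further than Sdhb, is not shown. Searched on both strands in the windows of 300 bases that reach 50 bases past the start, GCATGCGC was found in 12 of 71 genes (16.9%) and in 3.05% of the 27025 genes with a window. This 8-letter form was chosen after the windows had been seen, and the longer NRF1 palindrome, which contains it, was found in 8.45% and 1.07%. TGACGTCA was found in 5.63% of the 71 genes, Cycs, Ndufb2, Uqcrfs1 and Ndufa10, and in 2.03% of all. The ETS and GABP letters CCGGAAGT were found in 7.04% against 4.31%. The YY1 letters AAGATGGCG were found in 8.45% against 1.64%, a consensus NF-kB site in 0 of 71 against 0.174%, and the antioxidant response letters TGACNNNGC in 14.1% against 14.0%. A match describes letters in the window and not a bound site.

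LPS lowered most of the respiratory chain genes, each by a modest amount. Of the 86 genes, 71 fell, 4 rose and 11 did not pass the test (limma, Benjamini-Hochberg adjusted p below 0.05 over all 12393 genes). Over all genes tested, 36.1% fell, 22.2% rose and 58.2% were called in either direction. The median log2 difference was -0.37 for the 86 genes and -0.01 for all genes. Signal strength matters for this reading, since of 1534 genes at 10 or more in CON 63.4% fell, with a median of -0.29. Only 25 of the 71 falls exceeded 0.5 on the log2 scale. Fewer cells of a type and less RNA per cell cannot be told apart in such cultures.

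**Figure D1:**
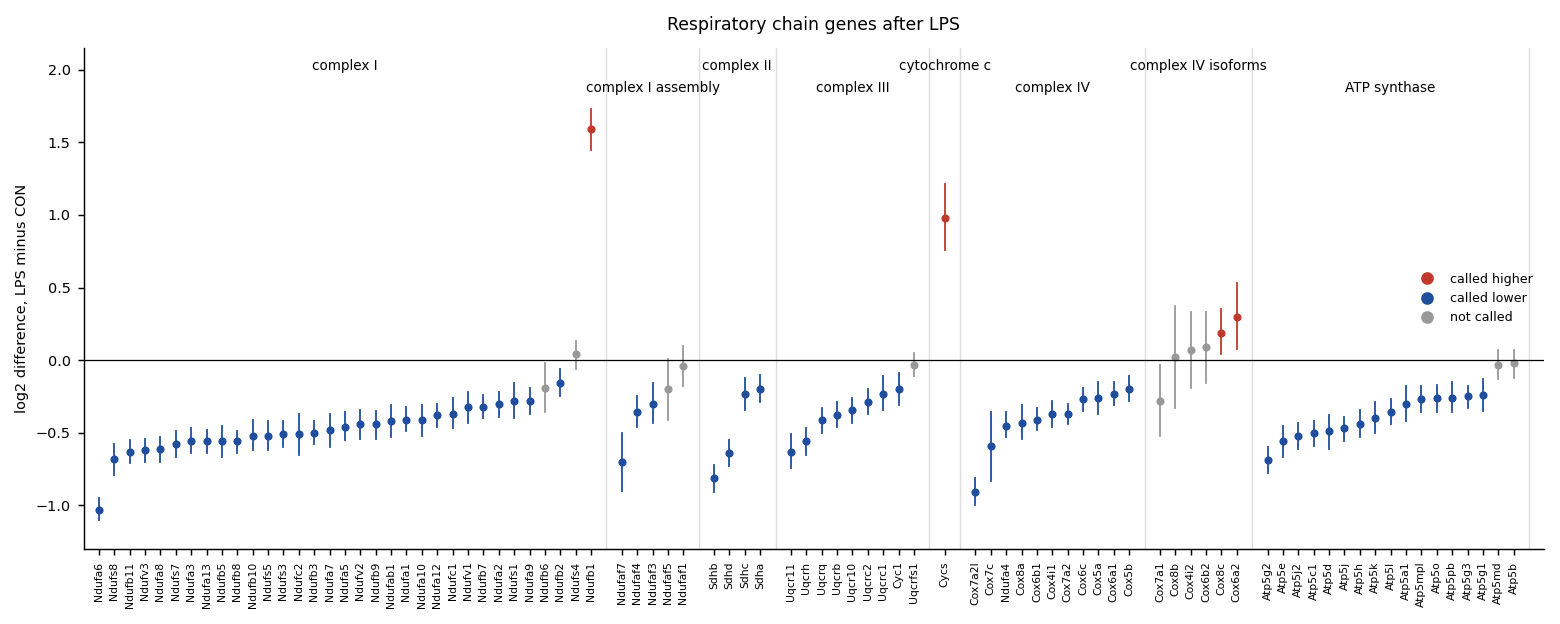
Log2 difference of LPS minus CON (vertical axis) for each of the 86 genes, grouped by complex. Points are differences, bars are 95% intervals and colours give the call, and most genes lie between 0 and -0.7 while Ndufb1 and Cycs stand at 1.59 and 0.98. With arrays centred on their median, 10 genes were called higher and 51 lower.

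Scaling moved this split. The deposited arrays have nearly equal distributions, and centring each array on its median moved the median of all genes from -0.014 to 0.21 and that of the 86 genes from -0.375 to -0.15. The centred values gave 51 falls and 10 rises, and cyclic loess between arrays gave 61 falls and 9 rises. Of the 71 falls, 49 were also called under every alternative tried. The control probe sets for RNA quality differed too. The log2 difference between 3′ and 5′ signals of Gapdh was 0.693 ± 0.039 (SD, n = 3) in CON and 0.516 ± 0.05 in LPS, and that of Actb was 0.588 ± 0.017 and 0.377 ± 0.053, with the same error. Their part in the falls was not tested.

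In complex I, 30 of 33 subunits fell after LPS and 1 rose, with a median of -0.46. With centred arrays 26 fell and 2 rose, with a median of -0.23. Ndufa6, an accessory subunit of the matrix arm, had the largest fall. Its signals were 10.70, 10.74 and 10.75 in CON and 9.70, 9.71 and 9.71 in LPS. The groups lay far apart with almost no spread, and the difference was -1.03 ± 0.0359 (standard error; limma adjusted p = 4.16e-13), a 2.04-fold lower signal. The 6 core subunits of the matrix arm, most of which carry the flavin or iron-sulfur clusters, all fell, from Ndufs1 at -0.28 ± 0.0572 and Ndufv1, which binds NADH, at -0.32 ± 0.0475 to Ndufs8 at -0.68 ± 0.0493. Under both other scalings Ndufs1 was not called. Ndufs8, which binds iron-sulfur clusters, had signals of 11.42, 11.32 and 11.44 in CON and 10.63, 10.73 and 10.78 in LPS, with no overlap. Among the accessory subunits Ndufb11 fell by 0.63, Ndufv3 by 0.62, Ndufa8 by 0.61 and Ndufb8 by 0.56.

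Ndufb1, an accessory subunit of the membrane arm, went the other way. Its signals were 7.48, 7.63 and 7.69 in CON and 9.16, 9.16 and 9.25 in LPS. All LPS arrays exceeded all CON arrays, and the rise of 1.59 ± 0.0662 (limma adjusted p = 3.83e-12) was the largest change of any member. It rests on 1 probe set, whose name comes from the deposited annotation alone. Ndufs4, a subunit whose loss in people causes Leigh syndrome, was not called on its brightest probe set, at 0.04 ± 0.0439. A dimmer one, with a mean signal of 5.38, fell by 0.53 ± 0.102. Ndufab1, the acyl carrier protein of complex I, had probe sets called in both directions. It fell by 0.42 ± 0.0516 on the brightest, with a mean signal of 10.83, and by 0.91 ± 0.138 on the dimmest, at 3.96. On the third, at 6.14, it rose by 0.26 ± 0.0911.

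Of the 5 complex I assembly factors, 3 fell. Ndufaf7, a methyltransferase that modifies a core subunit, fell by 0.70 ± 0.095, Ndufaf4 by 0.36 ± 0.0499 and Ndufaf3 by 0.30 ± 0.0627. Ndufaf3 was not called under either other scaling. Ndufaf1 stood at -0.04 ± 0.0672 and Ndufaf5 at -0.20 ± 0.0977, and neither passed the test.

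All 4 subunits of complex II (succinate dehydrogenase) fell after LPS, by unequal amounts. Sdhb, the iron-sulfur subunit, had signals of 11.45, 11.50 and 11.58 in CON and 10.66, 10.70 and 10.74 in LPS. The groups did not overlap, and the difference was -0.81 ± 0.0448 (limma adjusted p = 1.39e-10). Sdhd, a membrane anchor, fell by 0.64 ± 0.0422 and the other anchor, Sdhc, by 0.23 ± 0.0515. Sdha, the flavoprotein that oxidises succinate, had signals of 10.63, 10.61 and 10.73 in CON and 10.45, 10.45 and 10.48 in LPS. Its difference was -0.20 ± 0.0434 (limma adjusted p = 0.000965), and with arrays centred on their median it was 0.03. Neither Sdha nor Sdhc was called under either other scaling.

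Complex III showed the same direction, with 8 of 9 genes called lower and a median of -0.34. With centred arrays 5 were lower and 1 higher, with a median of -0.12. The largest falls were those of the small subunits Uqcr11, by 0.63 ± 0.0533, and Uqcrh, by 0.56 ± 0.0403. Uqcr11 had signals of 10.84, 10.96 and 10.95 in CON and 10.27, 10.23 and 10.37 in LPS, with no overlap. The core protein Uqcrc1 fell by 0.23 ± 0.0528 and cytochrome c1 (Cyc1) by 0.20 ± 0.0512, and neither call held under the other scalings. With centred arrays Cyc1 stood at 0.02. The Rieske iron-sulfur protein Uqcrfs1 stood at -0.03 ± 0.0374 and was not called as deposited, but was called higher, at 0.15 and 0.19, under the other scalings.

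Cycs, which encodes cytochrome c and also serves in apoptosis, rose. Its signals were 11.33, 11.19 and 11.02 in CON and 12.27, 12.31 and 11.91 in LPS. All LPS arrays lay above all CON arrays, with a difference of 0.98 ± 0.107 (limma adjusted p = 6.04e-07). The other probe sets of Cycs rose as well, by 0.97 ± 0.0417 and by 1.55 ± 0.0525. Mouse Cycs has processed copies in the genome, and whether its probe sets also read these was not tested.

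**Figure D2:**
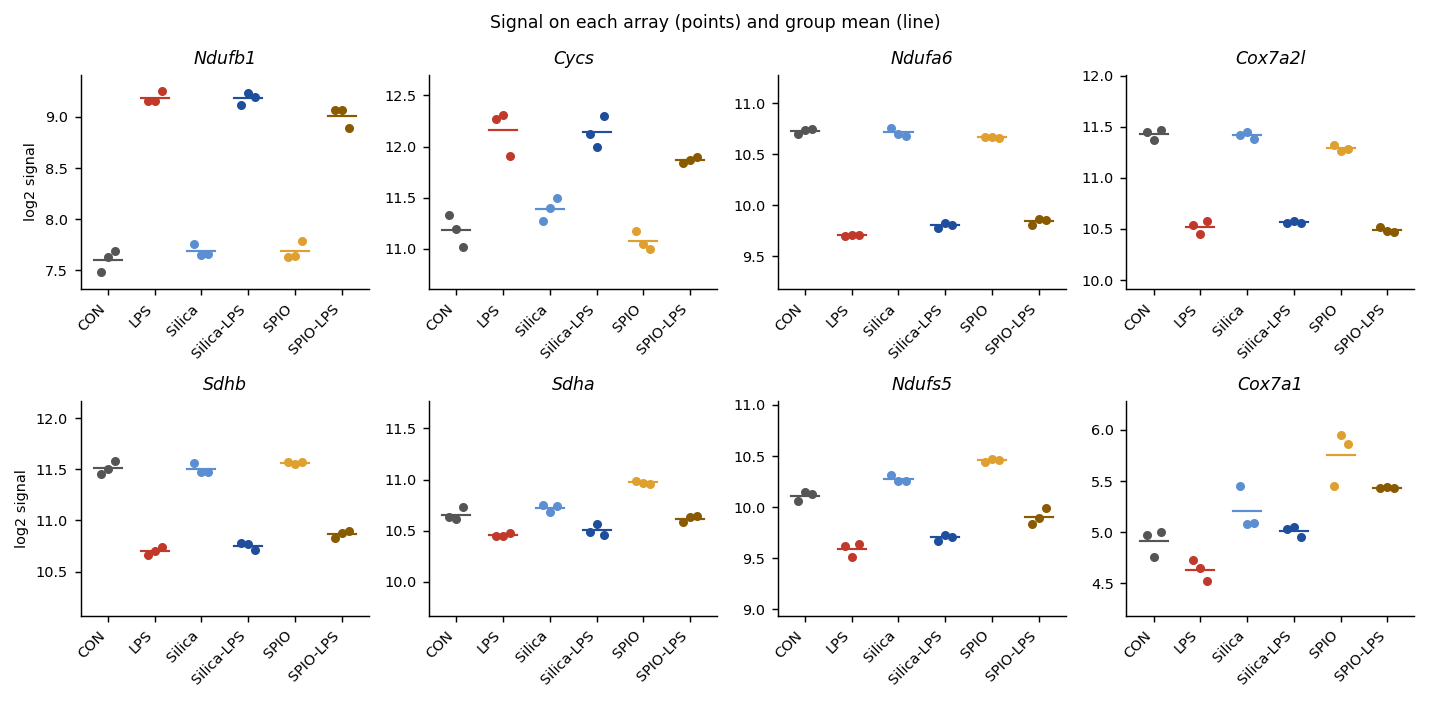
Log2 signal (vertical axis) of 8 genes on each array, by group, with points for arrays and lines for group means, and the same height of scale in every panel. Ndufb1 and Cycs are high in the 3 groups with LPS, Ndufa6, Cox7a2l and Sdhb are low there, and Cox7a1 is highest in SPIO and SPIO-LPS.

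In complex IV all 10 common subunits and Cox7a2l fell, with a median of -0.37. With centred arrays 7 of 11 fell, with a median of -0.15. Cox7a2l has been described as a factor for supercomplexes of complexes III and IV, a role not tested in these cells. Its signals were 11.45, 11.37 and 11.47 in CON and 10.54, 10.45 and 10.58 in LPS. The groups did not overlap, the difference was -0.91 ± 0.0431 (limma adjusted p = 2.07e-11), and its other probe sets both fell by 0.97. Ndufa4, named for complex I but a subunit of complex IV, fell by 0.45 ± 0.0414, and Cox4i1 fell by 0.37 ± 0.0425. The falls of Cox5a, by 0.26 ± 0.0527, Cox5b, by 0.20 ± 0.038, Cox6a1, by 0.23, and Cox6c, by 0.27, were not called with centred arrays, where Cox5b stood at 0.03. The tissue isoforms did not follow. None of the 6 fell, and 2 rose, the muscle isoform Cox6a2 by 0.30 ± 0.105 and the testis isoform Cox8c by 0.19 ± 0.0711. Both calls were lost when single arrays were left out, with Cox6a2 at limma adjusted p of 0.0838, 0.0632 and 0.0501 without the first CON array, the second LPS array or the third LPS array, within a range of 0.000896 to 0.0838 over all alternatives. Cox4i2, Cox6b2, Cox7a1 and Cox8b did not pass the test, and all had mean CON signals below 6.

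Of 17 ATP synthase genes 15 fell after LPS, with a median of -0.36. With centred arrays 9 fell and 2 rose, with a median of -0.13. The largest fall was that of Atp5g2, by 0.69 ± 0.0425. Its signals were 10.74, 10.81 and 10.85 in CON and 10.10, 10.08 and 10.17 in LPS, so that the groups lay apart. It is 1 of 3 genes for the same mature c subunit, which forms the rotor ring. The other two fell less, Atp5g1 by 0.24 ± 0.0496 and Atp5g3 by 0.25 ± 0.0353, and neither was called with centred arrays. In the catalytic head, Atp5e fell by 0.56 ± 0.05, Atp5c1 by 0.50 ± 0.0418, Atp5d by 0.49 ± 0.0538 and Atp5a1 by 0.30 ± 0.0556, the last not called with centred arrays. The catalytic beta subunit Atp5b stood apart. Its signals were 11.67, 11.69 and 11.81 in CON and 11.74, 11.68 and 11.68 in LPS. The groups overlapped, the difference was -0.02 ± 0.0451 (95% interval -0.12 to 0.07), and it was called higher under the other scalings, at 0.11 and 0.20.

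**Figure D3:**
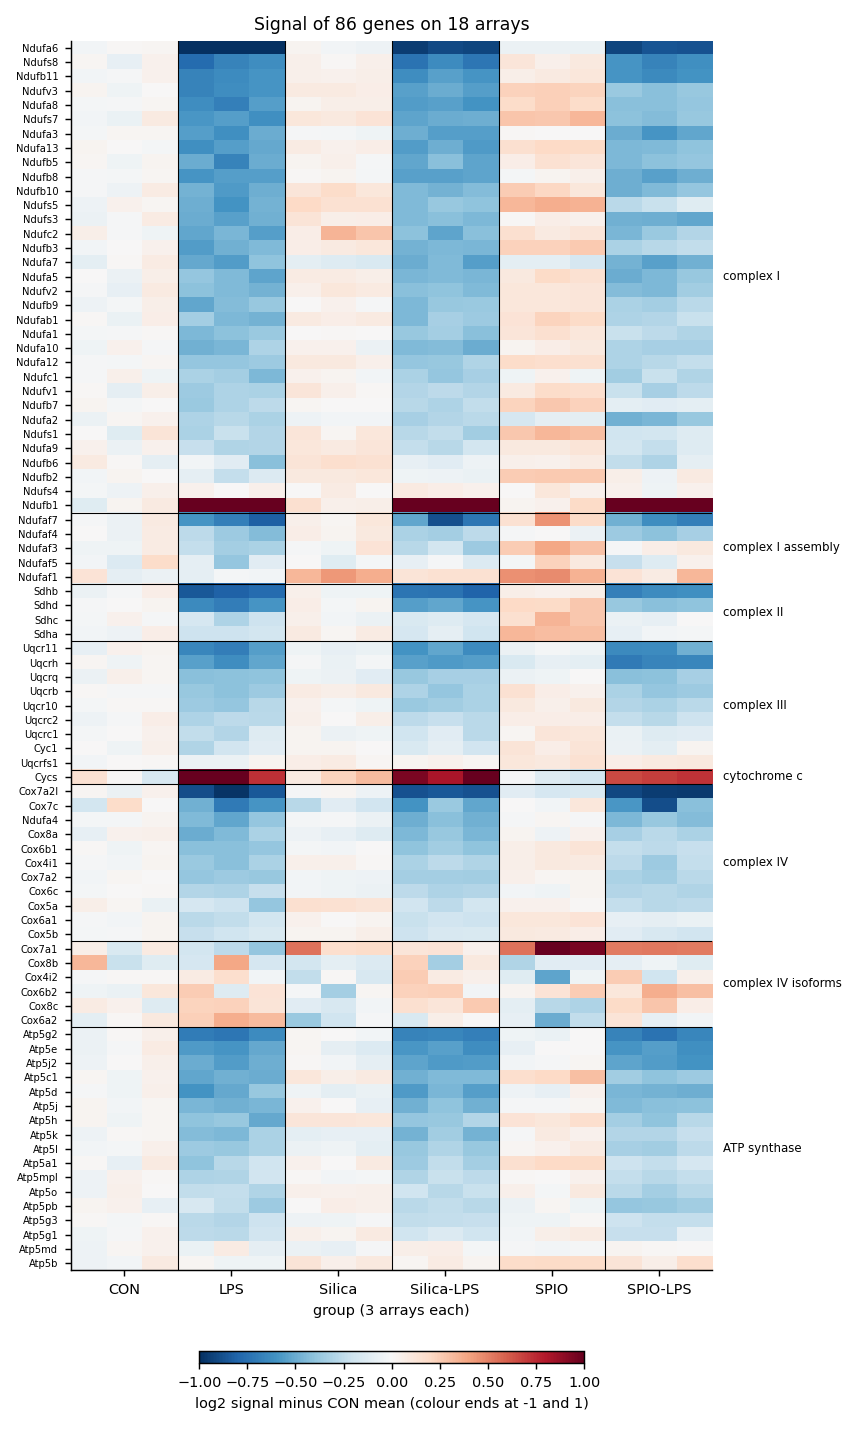
Log2 signal minus the CON mean for 86 genes (rows, by complex) on 18 arrays (columns, by group), with blue below and red above the CON mean. The 3 groups with LPS are blue in most rows, and Ndufb1 and Cycs are red there.

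Related mitochondrial lists are to be read against the same shares, 36.1% of all genes and 63.4% of genes at 10 or more in CON lower after LPS. Several lists lay near the share of bright genes or below it. All coenzyme Q genes and most ribosomal genes and other assembly factors stood below 10 in CON, so that share is not matched to their signal. Of 74 genes of the mitochondrial ribosome 52 fell and 5 rose, of 17 genes of the citrate cycle and pyruvate dehydrogenase 13 fell and 1 rose, and of 9 coenzyme Q genes 8 fell. Fumarase (Fh1) fell by 0.89 ± 0.0448, Idh3g by 0.82 ± 0.0474 and Idh2 by 0.57 ± 0.0527, while Dld, the E3 subunit shared by several dehydrogenases, rose by 0.51 ± 0.0504. Of 29 other assembly factors 19 fell and 5 rose, with Coa6 down by 1.48 ± 0.0686 and Surf1 by 1.22 ± 0.0552, and Cox18 up by 1.11 ± 0.0655. Of 13 genes for iron-sulfur clusters and mitochondrial iron 8 fell and 4 rose. Hscb, a co-chaperone of cluster transfer, fell by 1.93 ± 0.072, and the iron importer Slc25a37 rose by 1.57 ± 0.0567. Of 12 carriers and porins 9 fell and 2 rose.

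Regulators were split. Of 17 regulators of mitochondrial biogenesis 10 fell and 3 rose. Polrmt, the mitochondrial RNA polymerase, fell by 0.88 ± 0.0639 and the transcription factor Tfb2m by 0.86 ± 0.056, while Gabpb1, a subunit of NRF-2, rose by 1.06 ± 0.0744, Esrra by 0.65 ± 0.0574 and Nrf1 by 0.33 ± 0.0826. Of 16 genes with links to respiration 8 fell and 4 rose. The rises were led by Acod1, which makes itaconate, an inhibitor of succinate dehydrogenase, at 7.05 ± 0.0985, and by mitochondrial superoxide dismutase Sod2 at 2.57 ± 0.0445 and the glycerol phosphate dehydrogenase Gpd2 at 2.43 ± 0.0425.

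Iron oxide without LPS raised part of the chain by small amounts. Of the 86 genes, 29 were higher in SPIO than in CON and 3 were lower, where 19.6% of all genes were higher and 14.2% lower (33.8% in either direction). Of the 1534 genes at 10 or more in CON, 29.9% were higher and 25.4% lower. The share of the 86 genes that rose, 33.7%, was near that of bright genes, and the share that fell, 3.49%, was below theirs. The median was 0.08 for the 86 genes and -0.01 for all. By complex the rises were 15 of 33 in complex I, 3 of 5 assembly factors, 3 of 4 in complex II, 1 of 9 in complex III, 2 of 11 in complex IV, 1 of 6 isoforms and 4 of 17 in ATP synthase. The counts were 19 rises and no fall when only the CON and SPIO arrays were fitted, 23 and 6 with centred arrays, and 30 and 5 with cyclic loess. Of the 29 rises, 15 were called under every alternative tried.

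The muscle isoform Cox7a1 changed most. Its signals were 4.97, 4.76 and 5.0 in CON and 5.45, 5.95 and 5.86 in SPIO. All SPIO arrays lay above CON, at the dim end of the scale, and the rise was 0.84 ± 0.117 (limma adjusted p = 3.84e-05). In complex II, Sdha had signals of 10.99, 10.97 and 10.96 in SPIO, above the CON values given for LPS, with a rise of 0.32 ± 0.0434 (limma adjusted p = 3.52e-05). Sdhc rose by 0.25 ± 0.0515 and Sdhd by 0.21 ± 0.0422, and neither call held for the mean of the probe sets of the gene. Sdhb stood at 0.05 and was not called.

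In complex I the largest rise was that of Ndufs5, an accessory subunit on the intermembrane side. Its signals were 10.06, 10.15 and 10.13 in CON and 10.44, 10.47 and 10.46 in SPIO. The groups did not overlap, with a rise of 0.34 ± 0.0474 (limma adjusted p = 3.74e-05). The core subunits Ndufs7 and Ndufs1 rose by 0.30 ± 0.0424 and 0.30 ± 0.0572, and Ndufb2 by 0.26 ± 0.045. Ndufaf1 rose by 0.43 ± 0.0672 and Ndufaf3 by 0.31 ± 0.0627. In ATP synthase the rises included Atp5c1, by 0.22 ± 0.0418, and Atp5b, by 0.18 ± 0.0451. The genes called lower were Cox8c, by 0.23 ± 0.0711, Cox7a2l, by 0.15 ± 0.0431, and Ndufa2, by 0.12 ± 0.0412, and none of these was called when only the compared arrays were fitted. For Cycs the probe sets disagreed, with the dimmest higher by 0.19 ± 0.0525, another lower by 0.12 ± 0.0417 and the brightest not called at -0.11 ± 0.107.

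Among related lists, where 19.6% of all genes and 29.9% of bright genes were higher, 22 of 74 ribosomal genes were higher in SPIO than in CON and 3 lower, 9 of 29 other assembly factors were higher and none lower, and 5 of 9 coenzyme Q genes were higher and none lower. Neither share is matched to the signal of these lists. Of the regulators 4 of 17 were higher, led by the coactivator Ppargc1b at 1.03 ± 0.141. Of the genes linked to respiration 5 of 16 were higher and 1 lower, with Chchd10, a protein of the cristae junction, at 2.05 ± 0.0925. Of the iron-sulfur genes 6 of 13 were higher and 2 lower, with the cysteine desulfurase Nfs1 at 0.34 ± 0.0541 and the scaffold Iscu at -0.16 ± 0.0415. The citrate cycle list had 7 of 17 higher and 2 lower, and the carriers 4 of 12 higher and 1 lower, with the pyruvate carrier Mpc1 at 0.76 ± 0.0415.

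Markers of other cells moved with iron oxide. Of 8 neutrophil markers 7 were lower in SPIO than in CON and 1 higher, and their summed linear signal ran from 21388 to 22763 in CON and from 15487 to 16051 in SPIO. Of 10 fibroblast markers 5 were lower, with summed signals of 26541 to 27183 in CON and 21865 to 22509 in SPIO. Of 10 macrophage markers 3 were higher and 6 lower, with summed signals of 69271 to 69899 and 68229 to 68926. After LPS 6 fibroblast markers fell and 3 rose, with a sum of 20909 to 21944, and 6 macrophage markers fell and 3 rose, with a sum of 75572 to 76228. Of the neutrophil markers 4 fell and 1 rose after LPS, with a sum of 20275 to 20771. Over all genes tested, 14.2% were lower and 19.6% higher in SPIO, and 36.1% were lower and 22.2% higher after LPS. Of genes at 10 or more in CON, 25.4% were lower in SPIO and 63.4% after LPS. The marker counts after LPS are therefore not set apart from those of other genes. Gapdh 3′ to 5′ differences were 0.471 ± 0.026 (SD, n = 3) in SPIO, below those of CON, while those of Actb were 0.657 ± 0.015 (SD, n = 3), above. The part of these shifts in the results on the chain was not tested.

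Under LPS the iron oxide groups differed again in the upward direction. SPIO-LPS exceeded LPS in 28 of the 86 genes and was below it in 5, against 18.2% and 14.6% of all genes (32.7% in either direction). Of genes at 10 or more in CON, 28.3% were higher and 22.5% lower. The 32.6% of the 86 genes that were higher was near that share, and the 5.81% that were lower was below it. The median was 0.06 for the 86 genes and 0.01 for all. The LPS arrays serve both here and in the comparison of LPS with CON, so the values of both comparisons are given side by side without a test of their relation. All 4 genes of complex II were higher, 14 of 33 in complex I, 2 of 9 in complex III, 2 of 11 in complex IV and 3 of 17 in ATP synthase. The count is sensitive to single arrays, with 20 genes called without the second LPS array and 18 without the third SPIO-LPS array. It was 10 when only the LPS and SPIO-LPS arrays were fitted, and 8 of the 28 rises were called under every alternative.

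**Figure D4:**
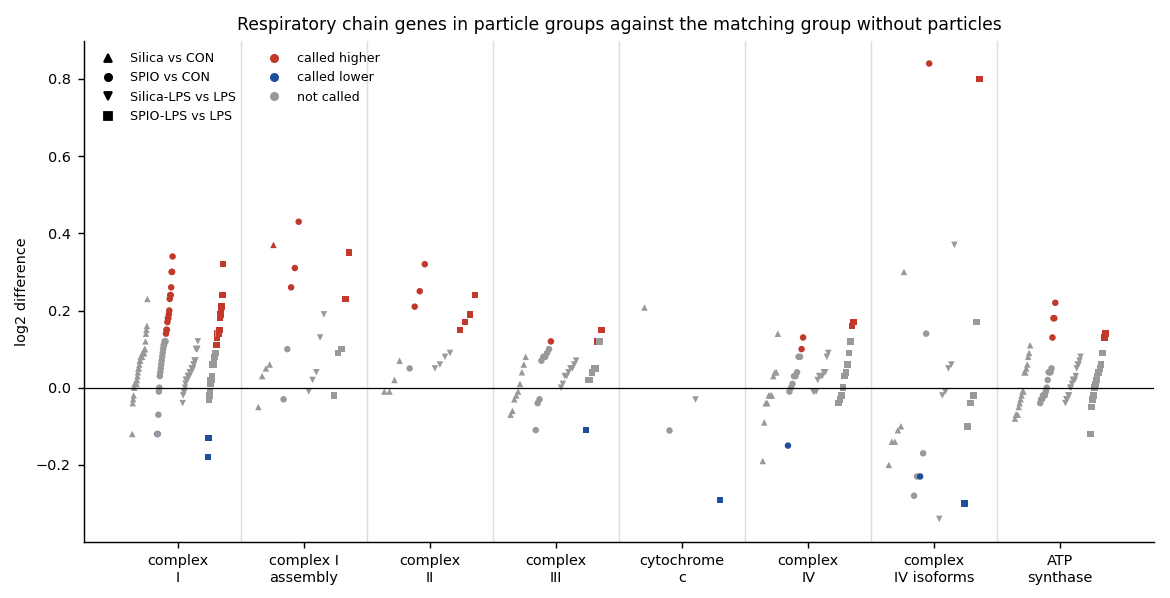
Log2 differences (vertical axis) of the 86 genes by complex in 4 comparisons, each particle group minus the matching group without particles, with 1 point per gene and colour for the call. The called points belong to the iron oxide comparisons, with Cox7a1 highest at 0.84 and 0.80, apart from 1 point of silica, Ndufaf1 at 0.37.

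Cox7a1 had signals of 4.73, 4.65 and 4.52 in LPS and 5.43, 5.44 and 5.43 in SPIO-LPS. The groups did not overlap, and the difference was 0.80 ± 0.117 (limma adjusted p = 6.51e-05). Ndufs5 had signals of 9.62, 9.51 and 9.64 in LPS and 9.84, 9.89 and 9.99 in SPIO-LPS, a rise of 0.32 ± 0.0474 (limma adjusted p = 7.87e-05). These values stayed below the CON signals of the gene. Ndufaf3 was higher by 0.35 ± 0.0627, Sdhd by 0.24 ± 0.0422, Ndufv3 by 0.24 ± 0.0361, Ndufb7 by 0.21 ± 0.0378 and Ndufb3 by 0.21 ± 0.0389.

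Complex II shows how the groups were placed. Mean signals of Sdhb were 11.51 in CON, 10.70 in LPS and 10.87 in SPIO-LPS, and those of Sdhd were 10.72, 10.08 and 10.32. For Sdha the means were 10.66, 10.46 and 10.61, and for Sdhc 9.13, 8.90 and 9.09. In all 4 the SPIO-LPS mean lay between the means of LPS and CON. SPIO-LPS exceeded LPS by 0.17 ± 0.0448 in Sdhb, 0.24 ± 0.0422 in Sdhd, 0.15 ± 0.0434 in Sdha and 0.19 ± 0.0515 in Sdhc, and only the call of Sdhd held when the compared arrays alone were fitted. The calls of Sdhd and Sdhc were lost for the mean of the probe sets of the gene. None of the 4 was called in the iron oxide interaction. Of 24 genes that were lower in LPS than in CON and higher in SPIO-LPS than in LPS, 22 had a SPIO-LPS mean below the CON mean. The exceptions were Ndufb2 and Ndufaf3. These 24 were chosen by calls that share the LPS arrays, and the share of all genes with this pattern was not counted. Their placing is therefore no test of a reversal of the LPS effect.

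Both genes that rose most after LPS were lower in SPIO-LPS than in LPS. Cycs had signals of 11.84, 11.87 and 11.90 in SPIO-LPS, below all LPS arrays, with a difference of -0.29 ± 0.107 (limma adjusted p = 0.046). Ndufb1 had signals of 9.07, 9.07 and 8.89, also below all LPS arrays, with a difference of -0.18 ± 0.0662 (limma adjusted p = 0.0427). Both calls were lost with the replicate number as a block, at adjusted p of 0.0624 and 0.0565 in limma, and when only the compared arrays were fitted, at 0.0991 and 0.105. Over all alternatives the adjusted p in limma ran from 0.000814 to 0.187 for Cycs and from 0.0113 to 0.198 for Ndufb1. Cox6a2 was lower by 0.30 ± 0.105, Ndufa2 by 0.13 ± 0.0412 and Uqcrh by 0.11 ± 0.0403. Of the 5 genes called lower, 0 were called under every alternative. Cox6a2 was not called under either other scaling, Uqcrh and Ndufa2 not when only the compared arrays were fitted, and Uqcrh was called with 7 of 18 arrays left out in turn. Among the related lists, where 18.2% of all genes and 28.3% of bright genes were higher, 19 of 74 ribosomal genes were higher in SPIO-LPS than in LPS and 2 lower, 9 of 29 other assembly factors were higher and 1 lower, and 8 of 13 iron-sulfur genes were higher and 1 lower. Neither share is matched to the signal of these lists. Of 8 neutrophil markers 6 were lower and 1 higher, and of 10 fibroblast markers 6 were lower, where 14.6% of all genes were lower. Summed fibroblast signals were 16996 to 17580 in SPIO-LPS.

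The particles were also compared directly, at the same labelled concentration and time but with cores of different material and size. Without LPS, SPIO exceeded Silica in 18 of the 86 genes and was below it in 2, where 14.6% of all genes were higher and 11.6% lower (26.1% in either direction). Of genes at 10 or more in CON, 23.7% were higher and 23.7% lower. The 20.9% of the 86 genes that were higher did not exceed the share of bright genes, and 2.33% were lower. The largest rises were those of Cox7a1, at 0.54 ± 0.117, Ndufaf3, at 0.28 ± 0.0627, Sdhc, at 0.27 ± 0.0515, and Sdha, at 0.25 ± 0.0434. Cycs was lower by 0.31 ± 0.107 and Cox7a2l by 0.13 ± 0.0431, and the call of Cycs was lost with the replicate number as a block (limma adjusted p = 0.0562, with a range of 0.00865 to 0.15 over the alternatives). That of Cox7a2l was lost when only the compared arrays were fitted and for the mean of its probe sets. The count of 20 fell to 13, 12 and 13 without the second Silica array, the second SPIO array or the third SPIO array. With LPS, SPIO-LPS exceeded Silica-LPS in 13 genes and was below it in 2, against 12.2% and 12.9% of all genes (25.1% in either direction). Of genes at 10 or more in CON, 20.8% were higher and 21.5% lower. Among the 86 genes, the 15.1% that were higher and the 2.33% that were lower both lay below those shares. Cox7a1 was higher by 0.42 ± 0.117, Ndufaf3 by 0.33 ± 0.0627 and Ndufs5 by 0.20 ± 0.0474, while Ndufa2 was lower by 0.14 ± 0.0412 and Uqcrh by 0.12 ± 0.0403. In both comparisons 8 of 10 fibroblast markers and 6 of 8 neutrophil markers were lower with iron oxide. Summed fibroblast signals were 28726 to 30587 in Silica and 22205 to 22813 in Silica-LPS, and summed neutrophil signals 19236 to 21824 and 19572 to 20342. The part of these markers in the differences was not tested. The count of 15 was 7 without the third Silica-LPS array and 6 when only the compared arrays were fitted.

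Silica alone gave few calls. Of the 86 genes 1, Ndufaf1, rose and none fell, against 2.45% of all genes higher and 1.57% lower (4.02% in either direction), and 14 of the 86 had an unadjusted p below 0.05 in limma. Ndufaf1, an early chaperone of complex I assembly, had signals of 7.33, 7.10 and 7.13 in CON and 7.52, 7.62 and 7.55 in Silica. The groups did not overlap, the difference was 0.37 ± 0.0672 (limma adjusted p = 0.00532), and the adjusted p in limma was 0.0689 when only the compared arrays were fitted, the highest of a range from 0.00113 to 0.0689 over the alternatives. It was also the gene with the second largest rise after iron oxide, where it had 7.65, 7.66 and 7.54. Ndufc2 stood at 0.23 ± 0.0654, Ndufs5 at 0.16 ± 0.0474 and Cox7a1 at 0.30 ± 0.117 after silica, and none passed the test. The median was 0.03 for the 86 genes, with a range from -0.20 to 0.37. Of the related lists, Mpc1, Chchd10, Etfdh and Mrpl1 were the genes called after silica, all higher, with Chchd10 at 0.58 ± 0.0925.

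Under LPS no member was called in Silica-LPS against LPS by limma, where 2.86% of all genes were, 1.89% higher and 0.976% lower. At an unadjusted p below 0.05 there were 7, of which 6 were higher, and the other settings tried with all 18 arrays gave 0 except the inclusion of probe sets with several symbols, which gave 1. The genes with the largest LPS effects stayed close to the LPS group. Ndufb1 had signals of 9.12, 9.23 and 9.20 in Silica-LPS, Sdhb 10.78, 10.77 and 10.71, and Ndufa6 9.78, 9.83 and 9.81. Those of Ndufb1 and Sdhb overlapped the LPS arrays, and those of Ndufa6 lay above them. Differences ran from -0.34 for Cox6a2 to 0.37 for Cox7a1. The 95% interval of Sdhb, at 0.05, ran from -0.05 to 0.14, and that of Ndufb1, at -0.01, from -0.15 to 0.13.

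Whether a particle changed the size of the LPS effect was tested by the interaction of particle and LPS. For silica none of the 86 genes was called by limma, against 0.0161% of all genes (0.00807% upward and 0.00807% downward), and 2 had an unadjusted p below 0.05. For iron oxide 1 gene was called, against 8.8% of all genes, 3.73% upward and 5.07% downward, and 4 had an unadjusted p below 0.05. The gene was Ndufa6, whose signals were 10.67, 10.67 and 10.66 in SPIO and 9.81, 9.87 and 9.86 in SPIO-LPS. The fall with LPS was smaller after iron oxide by 0.21 ± 0.0507 (limma adjusted p = 0.0141), and the adjusted p stayed between 0.00324 and 0.0451 over all alternatives. The Silica-LPS arrays of Ndufa6 also lay above the LPS arrays, and Ndufa6 was not called in SPIO-LPS against Silica-LPS. For Ndufb1 the interaction was -0.27 ± 0.0936 (limma adjusted p = 0.0969) and for Sdha -0.16 ± 0.0613 (limma adjusted p = 0.133), and neither passed the test. In simulated data the iron oxide interaction test recovered 12.3% of true changes of 0.25 and 52.9% of those of 0.5. Its values for the 86 genes ran from -0.27 to 0.21, so a gene not called may still differ.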

How the data were processed

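Per the labels' protocols, biotin-labelled RNA was made from total RNA with an oligo-dT primer and put on Affymetrix arrays. The authors deposited a log2 signal for each probe set, made by RMA per the submitters' processing notes. Which program ran RMA, and how, is not given here.

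Of 22690 probe sets, 64 were controls. Of the others 20380 had 1 symbol in the probe annotation, 691 several and 1555 none. The brightest probe set of each gene was kept, without a filter. In R 4.3.3 with limma 3.58.1, a model with 1 mean for each group was fitted on 18 arrays, 9 contrasts were tested with eBayes, and p-values were adjusted by Benjamini-Hochberg within a contrast over 12393 genes. Errors are standard errors of the model unless marked SD. The procedure was tested on simulated data in which a small share of genes changed. True log2 changes of 0.25 were recovered in 36.8% of genes for LPS, 29.7% for SPIO and 12.3% for the iron oxide interaction. Changes of 0.5 were recovered in 82.4%, 79% and 52.9%. Alternatives were a replicate block, only the compared arrays, a trend with robust prior, other filters, other probe set choices, other scalings, array weights and each array left out. Figures used Python 3.11.15 and matplotlib 3.10.9.

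The members and gene lists were chosen with earlier results of these data known. Named genes are, per contrast, up to 12 called rises and falls of largest size, fixed members (assembly factors, complex II, isoforms, Cyc1, Cycs and named core subunits), genes whose probe sets disagree, and up to 3 called genes each way per related list. Atp5c1, Atp5d, Atp5e, Cox6c, Ndufa10, Ndufc2 and those named only for the replicate block fall outside this rule and were picked after their values were seen. Same-numbered arrays were not paired, since their deviations correlated at -0.315 to 0.126.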

Additional observations from a re-analysis of the deposited data

Results flagged for a closer look

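Ndufa6 met the criterion of an effect that differs between groups, by the test of the interaction itself. Its LPS effect was less negative after iron oxide than after medium by 0.21 ± 0.0507 (limma adjusted p = 0.0141). The group means were 10.73 in CON, 9.70 in LPS, 10.67 in SPIO and 9.85 in SPIO-LPS, so all 3 arrays of SPIO-LPS lay above all 3 of LPS. All 3 arrays of Silica-LPS lay above those of LPS as well. Ndufa6 was not called in SPIO-LPS against Silica-LPS or in the silica interaction, so the difference is not shown to be particular to iron oxide. The rest of the 86 genes did not pass this test, which recovered few changes of such size in simulated data on genes of all signal strengths.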

How the results depend on the processing

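The count of genes called after LPS kept its size under every alternative, between 61 and 79, and between 74 and 77 with single arrays left out. With only the compared arrays fitted, the count went from 32 to 19 in SPIO against CON, from 33 to 10 in SPIO-LPS against LPS, from 15 to 6 in SPIO-LPS against Silica-LPS and from 1 to 0 in Silica against CON. Silica against CON gave 4 with a variance trend and robust prior, 3 without the dimmest 33.3% of genes, 2 with the mean of the probe sets and 3 with array weights. The iron oxide interaction gave 3 with the trend and 2 with the mean of the probe sets, and Silica-LPS against LPS gave 1 with probe sets of several symbols. Leaving out 1 array gave 1 to 2 in Silica against CON, 22 to 34 in SPIO against CON, 0 to 1 in Silica-LPS against LPS, 18 to 32 in SPIO-LPS against LPS, 12 to 23 in SPIO against Silica, 7 to 17 in SPIO-LPS against Silica-LPS, 0 for the silica interaction and 1 to 2 for that of iron oxide. The replicate number as a block gave, 75 after LPS, 32 after iron oxide, 29 in SPIO-LPS against LPS, 18 and 14 between the particles, 1 after silica, 0 in Silica-LPS against LPS, and 0 and 1 for the interactions. The block ended 9 calls, all with adjusted p between 0.0504 and 0.0685 in limma, those of Cox6b1 and Ndufaf7 in SPIO against CON, Cycs, Ndufab1, Ndufb1 and Ndufb5 in SPIO-LPS against LPS, Atp5l and Cycs in SPIO against Silica and Ndufa13 in SPIO-LPS against Silica-LPS, and added 2, Ndufa9 and Ndufb9 in SPIO against CON. Among named genes, directions turned after LPS with centred arrays for Cox5b (0.03), Sdha (0.03), Cyc1 (0.02), Uqcrfs1 (0.19), Atp5b (0.20) and Ndufaf1 (0.18), and with cyclic loess for Uqcrfs1 (0.15), Atp5b (0.11) and Ndufaf1 (0.21). Genes not called as deposited were listed only where the other scaling called them, and further members that changed sign were not listed. With the mean of its probe sets Ndufs4 turned to -0.18 after LPS and to 0.14 in SPIO-LPS against LPS. The cause was not tested. Of other values of named genes, 9130 kept their call, 198 lost it and 48 gained it. Without detection calls, signal over background is unknown for the dim isoforms.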
